A study of Rattus norvegicus with 74 samples.

Results

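The genes described here carry out or feed fatty acid oxidation in the liver, and many of them are known targets of the nuclear receptor PPAR-alpha. The list was set by name and by function, and holds 33 genes. Of these, 32 were measured by a probe set that names a single gene, out of 14217 such genes on the array. The remaining gene, Acaa1a, shares its probe set with another gene and was not analysed here. Of the 32, 17 are classed here as mitochondrial (4 of the carnitine shuttle, 10 beta-oxidation enzymes, 3 of the electron transfer flavoprotein system). Another 3 are classed as peroxisomal, and 1, Bdh1, as ketogenic. The classes go by role, so a mitochondrial protein such as Acot2 can stand outside the 17. The other members are 3 acyl-CoA thioesterases and 8 genes of fatty acid uptake, binding, storage, signalling and fuel choice.

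The values come from liver RNA of Wistar Han rats at postnatal day 22 on Affymetrix rat expression arrays. The labels give daily gavage of BDE-47 (also written PBDE-47), a tetrabrominated diphenyl ether, or of DE-71, a commercial mixture of brominated diphenyl ethers, at 0.1, 15 or 50 mg/kg or at 0, with dams dosed on gestation days 6 to 21 and pups on postnatal days 12 to 21. Further rats received phenobarbital, a classic inducer of hepatic drug metabolism, at 0, 5 or 45 mg/kg, or PCB126, a dioxin-like polychlorinated biphenyl, at 0, 10, 50 or 250. The PCB126 doses carry the unit mg/kg in the labels, which could not be checked, and no separate schedule is stated for phenobarbital and PCB126. All 15 groups share strain, tissue and route, their sex and litter are not given, and each has 5 arrays except DE-71 at 50 mg/kg, which has 4 (replicates 2 to 5). Nothing in the labels says that the samples of a group come from different litters, so a p-value reflects only how these samples spread.

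Fatty acids taken up by hepatocytes are bound by Fabp1, activated to acyl-CoA and, for the mitochondrial route, carried through the inner membrane as carnitine esters, after which repeated rounds of dehydrogenation, hydration, dehydrogenation and thiolysis release acetyl-CoA. Peroxisomes shorten very long chains by a related set of enzymes, and the liver turns part of the acetyl-CoA into ketone bodies. PPAR-alpha, which binds fatty acids and fibrate drugs, pairs with RXR on direct repeats of a short motif and raises transcription of these genes in the fasted and in the suckling liver. In bulk tissue, fewer cells of a type and less RNA per cell cannot be told apart.

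Promoter sequence is shown for the members whose windows hold letters of the PPAR element and for Etfb, the gene with the smallest adjusted p among the members. RefSeq promoters of assembly GRCr8 matched 28 of the 32 members. They were searched over 300 bases, from 250 before to 50 after the start, on both strands. The core hexamer AGGTCA was present in 5 of the 28 members (17.9%) and in 5415 of all 33469 promoters (16.2%). The repeat AGGNCANAGGNCA, which overlaps the hexamer, was present in 1 member (3.57%), Fabp1, and in 139 promoters (0.415%). Capitals mark these matches, which are a description and not a measured binding site. The 250 bases before the start of Fabp1 hold the repeat on the opposite strand, and those of Etfb hold neither motif.
Fabp1 (chr4:104749090-104749339, plus strand): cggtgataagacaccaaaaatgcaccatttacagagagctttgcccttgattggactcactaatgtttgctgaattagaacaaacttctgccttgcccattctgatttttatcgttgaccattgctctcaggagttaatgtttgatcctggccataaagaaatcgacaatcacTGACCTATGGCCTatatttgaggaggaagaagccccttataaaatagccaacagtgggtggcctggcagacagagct
Etfb (chr1:102988249-102988498, plus strand): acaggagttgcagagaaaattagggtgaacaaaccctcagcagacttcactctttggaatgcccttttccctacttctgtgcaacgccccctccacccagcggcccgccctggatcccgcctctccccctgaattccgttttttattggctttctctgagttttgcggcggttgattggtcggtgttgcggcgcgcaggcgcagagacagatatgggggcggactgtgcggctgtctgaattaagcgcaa
The hexamers of the other 4 members are shown with a few flanking bases; Acadvl has a second match nearer its start.
Acadvl (chr10:55236857-55236886, minus strand): atggatcaccctAGGTCAagtagaatacag
Hadhb (chr6:31907451-31907470, minus strand): tcagtctggactTGACCTtc
Eci1 (chr10:13961144-13961173, plus strand): actggctgatctTGACCTcctgaagggcgg
Eci2 (chr17:30075771-30075800, plus strand): ccgagctcagttTGACCTcagcatccagct

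Values are log2 expression from RMA, which corrects, normalizes and summarises the probes of a probe set. Each dose was compared with 0 mg/kg of its own agent only, because the value distributions lay closer together within an agent than across agents. Of 656 possible pairs among the arrays of an agent, 4 held almost the same values. The pair within BDE-47 0 mg/kg (replicates 3 and 4) and the pair within DE-71 15 mg/kg (replicates 1 and 2) differed so little that each was averaged and counted as 1 sample, which left 72 samples. The other 2 pairs join dose groups (replicate 3 of BDE-47 at 15 and at 50 mg/kg, and DE-71 15 mg/kg replicate 5 with DE-71 50 mg/kg replicate 4) and were kept, with the results also given without them. Albumin lay between 14.71 and 14.94 in all arrays, and the 9 measured hepatocyte markers of 10 were high throughout. The array of DE-71 50 mg/kg replicate 2 had the lowest mean correlation with its group (0.9783). Its 3 measured neutrophil markers of 5 averaged 7.75 against 4.99 to 6.59 in the controls, and its hepatocyte markers averaged 12.93 against 13.17 to 13.28. Results of that group are therefore also given without this sample.

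Few of these genes passed the test. A gene was called, and is said to have risen or fallen, where limma's adjusted p over all 14217 genes was below 0.05. With phenobarbital at 45 mg/kg, 2 of 32 members fell and 0 rose, in a comparison in which 2.7% of all genes were called (1.32% fell and 1.38% rose). With DE-71 at 50 mg/kg, 2 rose and 2 fell, where 10.2% of all genes were called (4.83% rose and 5.35% fell). These counts of 2 and 4 in 32 stand near those backgrounds, and all 4 of the DE-71 calls were lost in at least 1 fit that left out a single sample. In the other 9 comparisons of a dose with its control, 0 of 32 members were called by limma. The genes called among all genes there were 0.106% with phenobarbital at 5 mg/kg, 0% with PCB126 at 10, 0.00703% at 50 and 0.0563% at 250, 0% with BDE-47 at 0.1 mg/kg, 0.823% at 15 and 4.03% at 50, and 0% with DE-71 at 0.1 mg/kg and 1.24% at 15.

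At an unadjusted p under 0.05, the members can be set against all genes in the same way. With BDE-47 they numbered 0, 6 and 7 of 32 at 0.1, 15 and 50 mg/kg, where 3.21%, 11.2% and 15.7% of all genes had such a p. All 6 at 15 mg/kg and 5 of the 7 at 50 mg/kg were higher than control. With DE-71 they numbered 2, 4 and 8 in order of dose, against 6.39%, 10.3% and 24.2% of all genes, and 5 of the 8 at 50 mg/kg were lower. Phenobarbital gave 4 at 5 mg/kg, all lower, and 5 at 45 mg/kg, 4 of them lower, against 6.59% and 12.8% of all genes. PCB126 gave 0, 0 and 1 in order of dose, against 2.67%, 5.63% and 5.82%. Where groups are said below not to overlap, this only describes the samples. The share of all genes without overlap is not given, and the BDE-47 control counts only 4 samples.

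**Figure D1:**
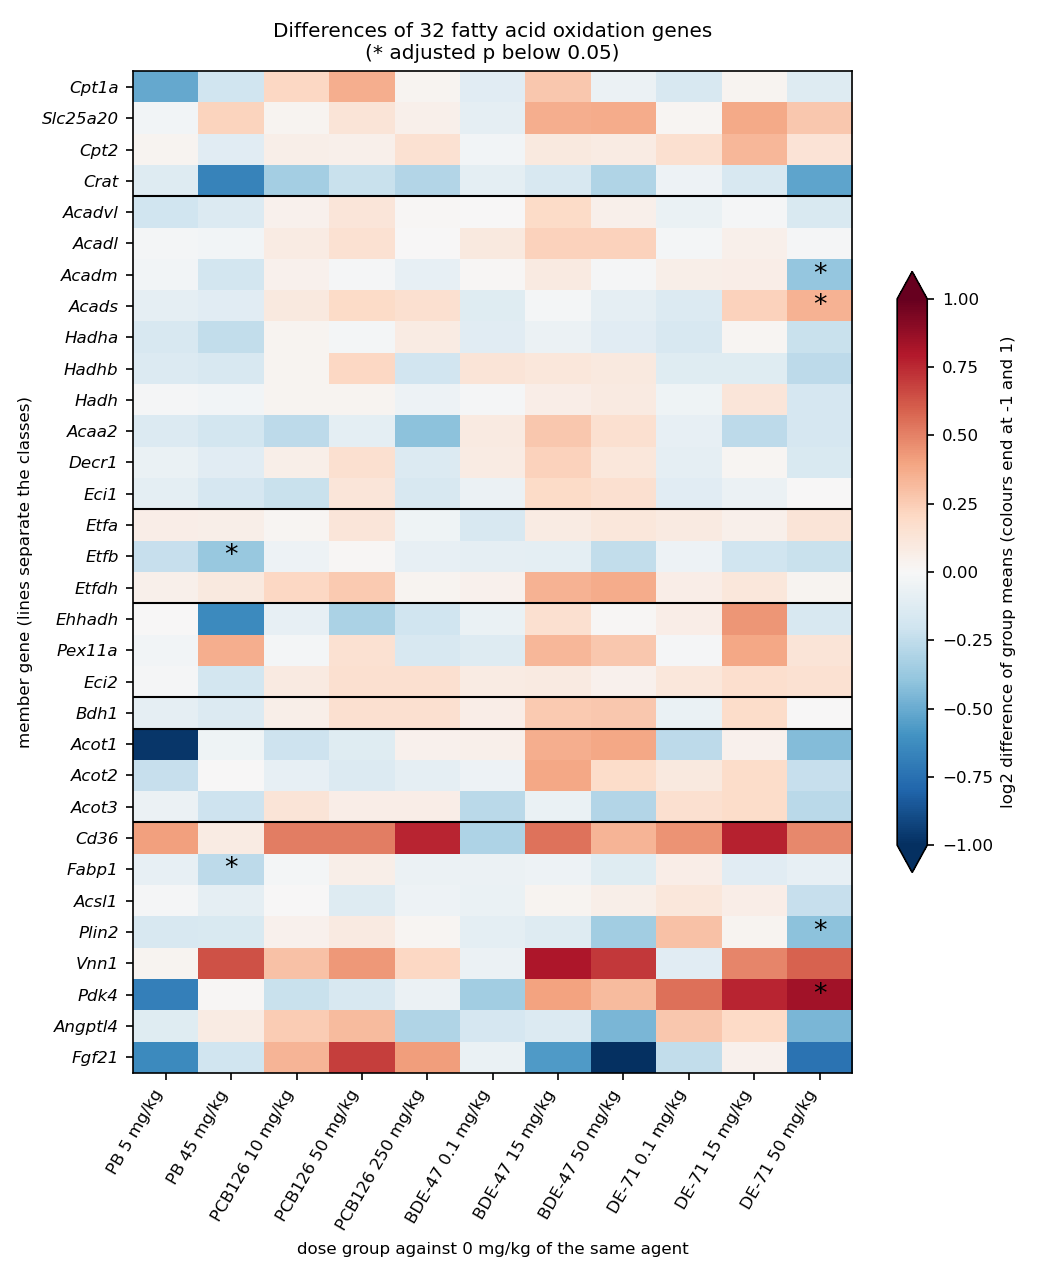
Log2 difference of group means for each of the 32 genes (rows, by class) in each dose group relative to its control at 0 mg/kg (columns); red is higher, blue is lower, colours end at -1 and 1, and stars mark an adjusted p below 0.05. The 6 stars fall in 2 columns, phenobarbital 45 mg/kg (Etfb and Fabp1) and DE-71 50 mg/kg (Acads, Acadm, Plin2 and Pdk4).

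The median difference over the 32 members was small for every agent. It was -0.08 with phenobarbital at 5 mg/kg, with 27 members below 0 and 5 above, and -0.12 at 45 mg/kg, with 23 below and 9 above. Both doses share the same controls, and the share of all genes below 0 is not given. With BDE-47 the members' median was -0.06 at 0.1 mg/kg, 0.13 at 15 and 0.09 at 50. Without the near-identical arrays that join the BDE-47 doses, the last 2 were 0.06 and 0.03. With DE-71 it was -0.02, 0.07 and -0.15 in order of dose, and at 50 mg/kg it was -0.1 without replicate 2 and -0.22 without the near-identical arrays. With PCB126 it was 0.04, 0.12 and -0.02. Over all genes the median, which normalization holds near 0, lay between -0.02 and 0.01 in these 11 comparisons.

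For 17 to 25 of the 32 members, depending on the comparison, the data also bound the size of any change. The 95% confidence interval lay inside a 1.5-fold change in either direction for 24 and 21 of 32 members with phenobarbital at 5 and 45 mg/kg. It did so for 22, 22 and 21 with PCB126 in order of dose, and for 23, 17 and 17 with BDE-47. With DE-71 the counts were 25, 17 and 18. The members left out of these counts, among them Cpt1a, Cd36, Fgf21, Acot1 and Pdk4, have wider intervals or larger differences.

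Mitochondrial, peroxisomal and ketogenic members were compared by their class medians. With phenobarbital at 45 mg/kg all 3 classes lay below 0: -0.14 over the 17 mitochondrial genes, -0.18 over the 3 peroxisomal genes, and -0.14 for Bdh1. With BDE-47 at 15 mg/kg all 3 lay above 0, at 0.11, 0.16 and 0.26. With DE-71 at 15 mg/kg the peroxisomal median was 0.39 and the mitochondrial median 0.03. With DE-71 at 50 mg/kg the classes were -0.15, 0.13 and 0. A peroxisomal median rests on only 3 genes and the ketogenic value on 1, and no difference between classes was tested.

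**Figure D2:**
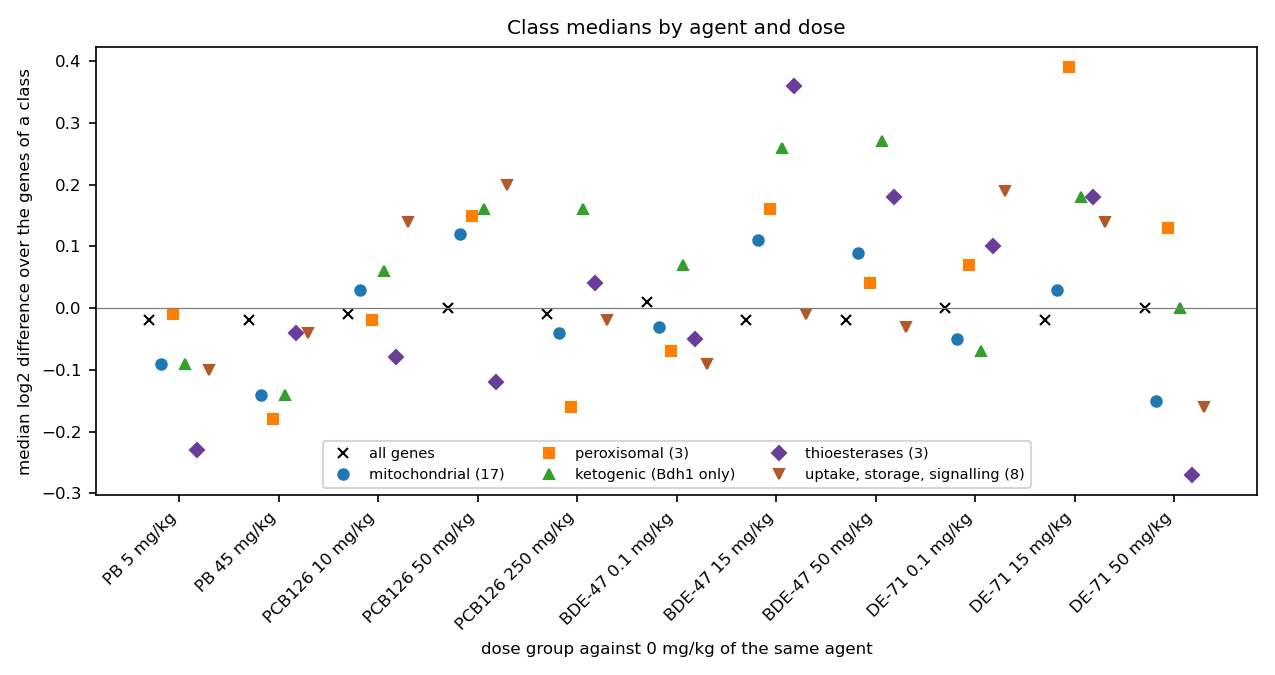
Median log2 difference over the genes of each class (vertical axis) for each dose relative to its control at 0 mg/kg (horizontal axis); crosses are all 14217 genes, and the number of genes per class is in the key. The crosses, which normalization holds near 0, stay between -0.02 and 0.01. The class medians lie between -0.27 (thioesterases, DE-71 50 mg/kg) and 0.39 (peroxisomal, DE-71 15 mg/kg).

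Single samples differed in their median over the list, in untreated groups as well. The median deviation of the 32 members from the control mean of the same agent ranged from -0.31 to 0.41 over the 72 samples (SD 0.15). Over all genes it ranged from -0.04 to 0.06 (SD 0.02), but normalization holds that median near 0. The all-gene range is therefore no yardstick for a median of 32 genes. The highest sample was PCB126 250 replicate 3, at 0.41, and replicate 4 of the same group lay at -0.27. Among the untreated DE-71 animals, replicate 2 lay at 0.36 and replicate 4 at -0.27. In DE-71 at 0.1 and at 50 mg/kg the lowest sample lay at -0.31 in each. Replicate 3 of BDE-47 at 15 and at 50 mg/kg, the near-identical pair, lay at 0.3 in both groups. Members also varied a little more within groups than genes in general, with a median residual SD of 0.23 against 0.18 over all genes, from 0.09 for Fabp1 to 0.87 for Fgf21.

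**Figure D3:**
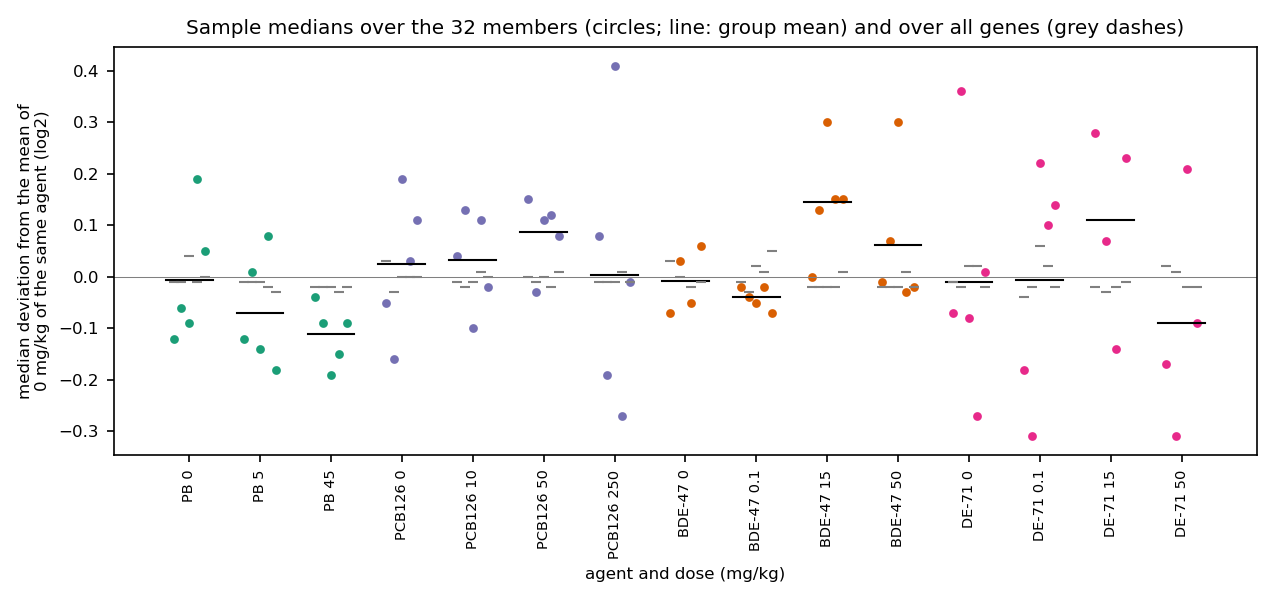
Each circle is the median over the 32 members of a sample's deviation from the mean of 0 mg/kg of its own agent (log2); black lines are group means and grey dashes give the same median over all genes. Samples span -0.31 to 0.41 over the members, with wide spread in PCB126 250 and in the DE-71 groups, controls included. The median over all genes (-0.04 to 0.06) is held near 0 by normalization.

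The carnitine shuttle had 0 called members of 4 in every dose comparison. Cpt1a, the malonyl-CoA-sensitive enzyme that starts the shuttle, differed by -0.51 with phenobarbital at 5 mg/kg to 0.36 with PCB126 at 50. Its 5 samples at phenobarbital 5 mg/kg (10.21 to 10.68) all lay below the 5 controls (10.77 to 11.3), yet its adjusted p by limma was 0.82. In the PCB126 250 group the same gene spanned 8.76 to 11.36. Cpt2, which reverses the transfer inside the mitochondrion, lay between -0.11 and 0.33.

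Crat, the carnitine acetyltransferase, was below its control mean in all 11 dose comparisons, by -0.67 to -0.05. The controls of phenobarbital read 8.5, 8.45, 8.49, 8.88 and 8.7, and the 45 mg/kg samples 8.17, 7.95, 7.85, 7.73 and 7.95. The groups did not overlap, with a difference of -0.67 (SE 0.22, 95% CI -1.11 to -0.24), but the adjusted p by limma was 0.08. With DE-71 at 50 mg/kg it was -0.53 (adjusted p 0.13), and it was called there when the near-identical arrays were left out. Comparisons within an agent share their controls, so the 11 values are not independent.

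Slc25a20, the carnitine-acylcarnitine carrier of the inner membrane, differed by 0.36 and 0.37 with BDE-47 at 15 and 50 mg/kg and by 0.38 and 0.27 with DE-71. The limma adjusted p-values were 0.23, 0.1, 0.2 and 0.19. The BDE-47 controls read 8.7, 8.72, 8.97 (the averaged pair) and 9.17, and the 50 mg/kg samples 9.3, 9.25, 9.38, 9.15 and 9.23. One treated sample fell just under the highest control, so these groups overlapped. Without control replicate 5 the gene was called at 50 mg/kg.

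Among the 10 mitochondrial beta-oxidation enzymes, 1 rose and 1 fell with DE-71 at 50 mg/kg and 0 were called elsewhere. Acads, the short-chain acyl-CoA dehydrogenase, read 9.79, 9.84, 9.94, 9.49 and 9.72 in the DE-71 controls. At 50 mg/kg it read 10.64, 10, 9.96 and 9.82, and at 15 mg/kg 10.08 (averaged pair), 9.75, 10.02 and 10.1. Replicate 2, at 10.64, stood above the rest, and 1 treated sample overlapped the controls. The rise at 50 mg/kg was 0.35 (SE 0.12, 95% CI 0.12 to 0.58, 1.27-fold, limma adjusted p 0.039). Without replicate 2 it was 0.17, with an adjusted p of 0.54. The call was also lost when control replicate 1 (0.36, adjusted p 0.056), 4 (0.28, adjusted p 0.13) or 5 (0.34, adjusted p 0.076) was left out.

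Acadm, the medium-chain acyl-CoA dehydrogenase, moved the opposite way. The DE-71 controls read 11.48, 11.84, 11.23, 11.18 and 11.73, and the 50 mg/kg samples 10.59, 11.15, 11.55 and 11.13. Replicate 2 was again the extreme sample, here the lowest, and 1 treated sample lay among the controls. The samples at 15 mg/kg stayed within the control range, at 11.57 (averaged pair), 11.65, 11.51 and 11.51. The fall at 50 mg/kg was -0.39 (SE 0.11, 95% CI -0.61 to -0.16, 1.31-fold, limma adjusted p 0.019). Without replicate 2 it was -0.21 (adjusted p 0.38), and without the near-identical arrays -0.54 (adjusted p 0.00078). Without control replicate 2 or 5 it was -0.3 (adjusted p 0.097) or -0.33 (adjusted p 0.077). Other cell type markers moved in this group as well, given here as a list's mean deviation from the controls in replicates 2, 3, 4 and 5. Endothelial markers lay at -0.77, -0.22, -0.15 and -0.41, cholangiocyte markers at 0.62, 0.45, 0.32 and 0.24, and stellate cell markers at -0.72, -0.42, 0.07 and -0.07. Their part in the 4 called members of this group was not tested.

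The other 8 enzymes of this class were not called in any group. With phenobarbital all 10 lay below their control means at both doses, between -0.2 and -0.01 at 5 mg/kg (median -0.09) and between -0.25 and -0.03 at 45 mg/kg (median -0.15), with 0 called. Hadha, the alpha subunit of the trifunctional protein, was the lowest there, at -0.25. The phenobarbital doses share their controls, so agreement between them is not independent. Acadl, the long-chain acyl-CoA dehydrogenase, differed by 0.23 with BDE-47 at 15 mg/kg (11.79 to 11.93 against 11.52 to 11.76 in controls, no overlap) with an adjusted p of 0.24 by limma. At 50 mg/kg it also differed by 0.23 (adjusted p 0.13). Acaa2, the thiolase of the last step, read -0.41 with PCB126 at 250 (limma p 0.021, adjusted p 0.81), the only member with an unadjusted p under 0.05 in that comparison.

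Etfb, the beta subunit of the flavoprotein that takes electrons from the acyl-CoA dehydrogenases, was the member with the firmest change. In phenobarbital controls it read 12.13, 12.1, 12.26, 12.14 and 12.14. At 45 mg/kg it read 11.85, 11.74, 11.69, 11.78 and 11.79, so that all 5 treated samples lay below all 5 controls. The group means were 12.15 ± 0.06 (SD, n = 5) and 11.77 ± 0.06 (SD, n = 5), a fall of -0.38 (SE 0.07, 95% CI -0.53 to -0.24, 1.31-fold, limma adjusted p 0.00053). At 5 mg/kg the samples lay between these, at 11.83, 11.94, 11.99, 11.93 and 11.93. They too did not overlap the controls, with a difference of -0.23 that was not called (adjusted p 0.4). When each of the 10 samples was left out in turn, the fall at 45 mg/kg was -0.4 to -0.36 and was called each time, with a highest adjusted p of 0.0036.

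Values of Etfb below control were also seen with the brominated agents, short of a call. With BDE-47 the controls read 11.77, 11.87, 11.91 (averaged pair) and 11.71, and the 50 mg/kg samples 11.4, 11.37, 11.68, 11.63 and 11.71. The highest treated value equalled the lowest control to 2 decimals, and the difference was -0.25 (SE 0.08, limma adjusted p 0.052). It was below 0.05 when control replicate 5 (0.037) or treated replicate 3 (0.041), 4 (0.048) or 5 (0.032) was left out, and without the near-identical arrays (0.046). With DE-71 the controls read 11.79, 11.84, 12.12, 11.96 and 11.78, the 15 mg/kg samples 11.74 (averaged pair), 11.71, 11.66 and 11.69, and the 50 mg/kg samples 11.7, 11.79, 11.63 and 11.57. The differences were -0.2 (adjusted p 0.31, no overlap) and -0.22 (adjusted p 0.057). The latter was called without control replicate 1 or 5 (both -0.25, adjusted p 0.046 and 0.049) or treated replicate 3 (-0.26, adjusted p 0.034). With PCB126 Etfb lay between -0.08 and 0.01. In the PCB126 50 group replicate 5 read 12.24 and the other samples 11.66 to 11.8, and this array's mean correlation with its group was 0.9837. Sample means in that group reached 7.39 for neutrophil markers (controls 5.44 to 5.79) and 13.06 for hepatocyte markers (controls 13.22 to 13.33). Their part in the values of Etfb was not tested.

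The partners of Etfb did not follow it. Etfa, the alpha subunit of the same protein, differed by -0.16 to 0.13 over the 11 comparisons and by 0.06 with phenobarbital at 45 mg/kg. With BDE-47 its samples lay below the controls at 0.1 mg/kg and above them at 50 mg/kg, but only just. The nearest treated and control values were equal to 2 decimals, at 11.62 and at 11.78 (an averaged pair) in turn. Etfdh, which passes the electrons on to ubiquinone, was above its control mean in all 11, by 0.03 to 0.37. With BDE-47 at 15 mg/kg its 5 samples (10.67 to 11.03) all lay above the controls (10.28 to 10.57), a difference of 0.35. Neither gene was called in any comparison.

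**Figure D4:**
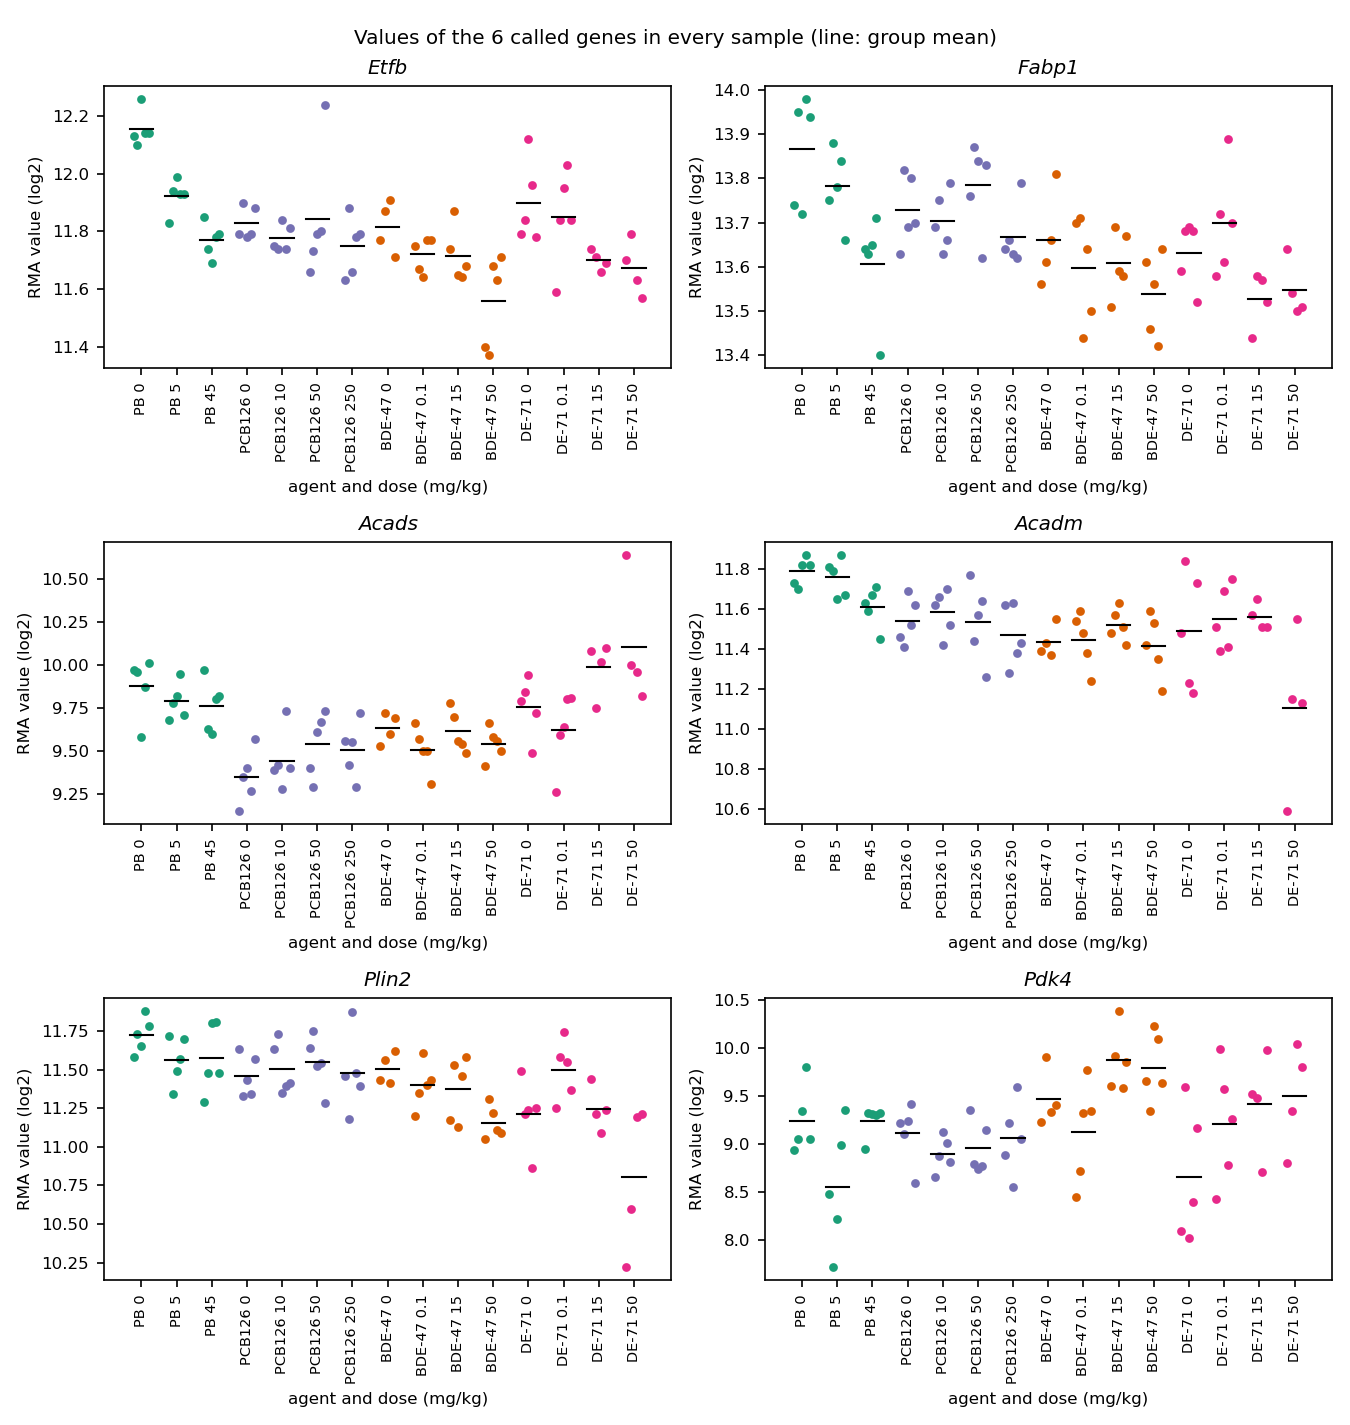
RMA log2 values of the 6 called genes in every sample (points) with group means (lines), by agent and dose in mg/kg. Etfb falls from 12.1 to 12.26 in phenobarbital controls to 11.69 to 11.85 at 45 mg/kg with no overlap, while Acads and Acadm at DE-71 50 mg/kg each have 1 extreme sample, replicate 2 (10.64 and 10.59).

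None of the 3 peroxisomal members was called with any agent. Ehhadh, the bifunctional enzyme of peroxisomal beta-oxidation and a classic PPAR-alpha target, read 10.75, 11.19, 10.91, 11.73 and 11.77 in phenobarbital controls and 10.57, 11, 10.37, 10.79 and 10.45 at 45 mg/kg. The difference was -0.64 with overlapping groups (limma adjusted p 0.2). With DE-71 at 15 mg/kg it was 0.44 (adjusted p 0.6). Pex11a, which drives peroxisome division, differed by 0.36 with phenobarbital at 45 mg/kg, 0.33 with BDE-47 at 15 mg/kg and 0.39 with DE-71 at 15 mg/kg (adjusted p 0.54 for the last). Eci2, an enoyl-CoA isomerase, stayed between -0.18 and 0.17.

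Bdh1, which reduces acetoacetate to beta-hydroxybutyrate, was the only ketogenic member. It was not called in any comparison. Its 5 samples with BDE-47 at 15 mg/kg (10.44 to 10.64) lay above all controls (10.07 to 10.43), a difference of 0.26 with a limma adjusted p of 0.43. At 50 mg/kg the difference was 0.27 (adjusted p 0.29). A second probe set of Bdh1 gave 0.02 and -0.11 at these doses and -0.41 (95% CI -0.64 to -0.18) with phenobarbital at 45 mg/kg, where the probe set used gave -0.14, so the 2 probe sets differ.

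The 3 acyl-CoA thioesterases, which release free fatty acid from acyl-CoA, had 0 calls. Acot1, a marker of PPAR-alpha activation, was dim on the array (mean log2 value 3.27) and read -0.97 with phenobarbital at 5 mg/kg (limma adjusted p 0.74). With BDE-47 it lay above all controls (2.49 to 2.69) at 15 mg/kg (2.81 to 3.18) and at 50 mg/kg (2.72 to 3.59), by 0.36 and 0.39 (adjusted p 0.85 and 0.78). Acot2, its mitochondrial counterpart, read 0.39 with BDE-47 at 15 mg/kg, and Acot3 between -0.29 and 0.18.

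Among the 8 genes of uptake, binding, storage, signalling and fuel choice, Fabp1 fell with phenobarbital, and Plin2 fell and Pdk4 rose with DE-71. Fabp1, the abundant fatty acid binding protein of hepatocytes whose promoter is shown above, read 13.74, 13.95, 13.72, 13.98 and 13.94 in phenobarbital controls and 13.64, 13.63, 13.65, 13.71 and 13.4 at 45 mg/kg. All treated samples lay below all controls, the closest pair being 13.71 and 13.72. The means were 13.87 ± 0.13 and 13.61 ± 0.12 (SD, n = 5 each), a fall of -0.26 (SE 0.06, 95% CI -0.39 to -0.13, 1.2-fold, limma adjusted p 0.012). Without replicate 5 of the treated group it was -0.21 (adjusted p 0.094), without control replicate 4 it was -0.23 (adjusted p 0.05), with arrays centred -0.25 (adjusted p 0.089), and in a fit of only these 2 groups the adjusted p was 0.13. At 5 mg/kg Fabp1 read 13.75, 13.88, 13.78, 13.84 and 13.66, a difference of -0.08.

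Plin2, the coat protein of lipid droplets, read 11.49, 11.21, 11.24, 10.86 and 11.25 in the DE-71 controls and 10.22, 10.6, 11.19 and 11.21 at 50 mg/kg. A pair of treated samples (replicates 2 and 3) was low and the other 2 lay within the control range. The fall was -0.41 (SE 0.13, 95% CI -0.68 to -0.14, 1.33-fold, limma adjusted p 0.04). Without replicate 2 it was -0.21 (adjusted p 0.51), and without the near-identical arrays -0.54 (adjusted p 0.0075). The call was also lost without treated replicate 3 (-0.34, adjusted p 0.12) and without control replicate 1, 2, 3 or 5 (-0.34, -0.41, -0.4 and -0.4, with adjusted p-values of 0.13, 0.064, 0.056 and 0.078). With BDE-47 at 50 mg/kg Plin2 read 11.05, 11.31, 11.22, 11.11 and 11.09 against 11.43, 11.56, 11.41 (averaged pair) and 11.62. Those groups did not overlap, but the difference of -0.35 was not called (adjusted p 0.15).

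Pdk4, the kinase that shuts off pyruvate dehydrogenase when fat is burned, varied widely among untreated rats. The DE-71 controls read 8.1, 9.6, 8.02, 8.4 and 9.17, and the 50 mg/kg samples 8.81, 9.35, 10.04 and 9.81. All 4 treated samples lay above the control mean, and 2 of them overlapped the controls. The rise was 0.84 (SE 0.29, 95% CI 0.27 to 1.41, 1.79-fold, limma adjusted p 0.047). Without replicate 2 it was 1.07 (adjusted p 0.036), and without the near-identical arrays 0.66 (adjusted p 0.14). The call was also lost without treated replicate 4 or 5 (0.66 and 0.74, adjusted p 0.15 and 0.12) and without control replicate 1, 3 or 4 (0.7, 0.68 and 0.78, adjusted p 0.14, 0.13 and 0.094). A second probe set gave 0.29 (95% CI -0.28 to 0.87). At 15 mg/kg the samples read 9.52 (averaged pair), 9.48, 8.71 and 9.98, a difference of 0.76 that was not called (adjusted p 0.26).

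Vnn1, a pantetheinase that responds strongly to PPAR-alpha ligands, read 9.13, 9.06, 8.54 (averaged pair) and 8.48 in the BDE-47 controls. It read 9.73, 9.55, 9.61, 9.6 and 9.58 at 15 mg/kg and 9.51, 9.4, 9.61, 9.73 and 9.32 at 50 mg/kg. Both treated groups lay wholly above the controls, by 0.81 and 0.71, yet with adjusted p-values of 0.32 and 0.28 by limma neither was called. In the fit restricted to the groups compared it was called at both doses. It differed by 0.64 with phenobarbital at 45 mg/kg and 0.59 with DE-71 at 50 mg/kg.

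Fgf21, a fasting hormone secreted by the liver under PPAR-alpha control, went the other way. With BDE-47 at 50 mg/kg it read 4.76, 4.53, 4.97, 5.06 and 5 against 6.28, 5.64, 6.01 (averaged pair) and 5.98. The treated values lay near the medians of their arrays (4.877 to 4.908), so the signal was low. The groups did not overlap, and the difference was -1.11 (95% CI -2.23 to 0, limma adjusted p 0.32), with an interval set by the wide spread of Fgf21 over all groups. Cd36, a fatty acid translocase, lay between -0.31 and 0.77. Angptl4, a secreted inhibitor of lipoprotein lipase, read -0.46 with both BDE-47 and DE-71 at 50 mg/kg. Acsl1, the main acyl-CoA synthetase of liver, read -0.23 with DE-71 at 50 mg/kg (adjusted p 0.15).

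**Figure D5:**
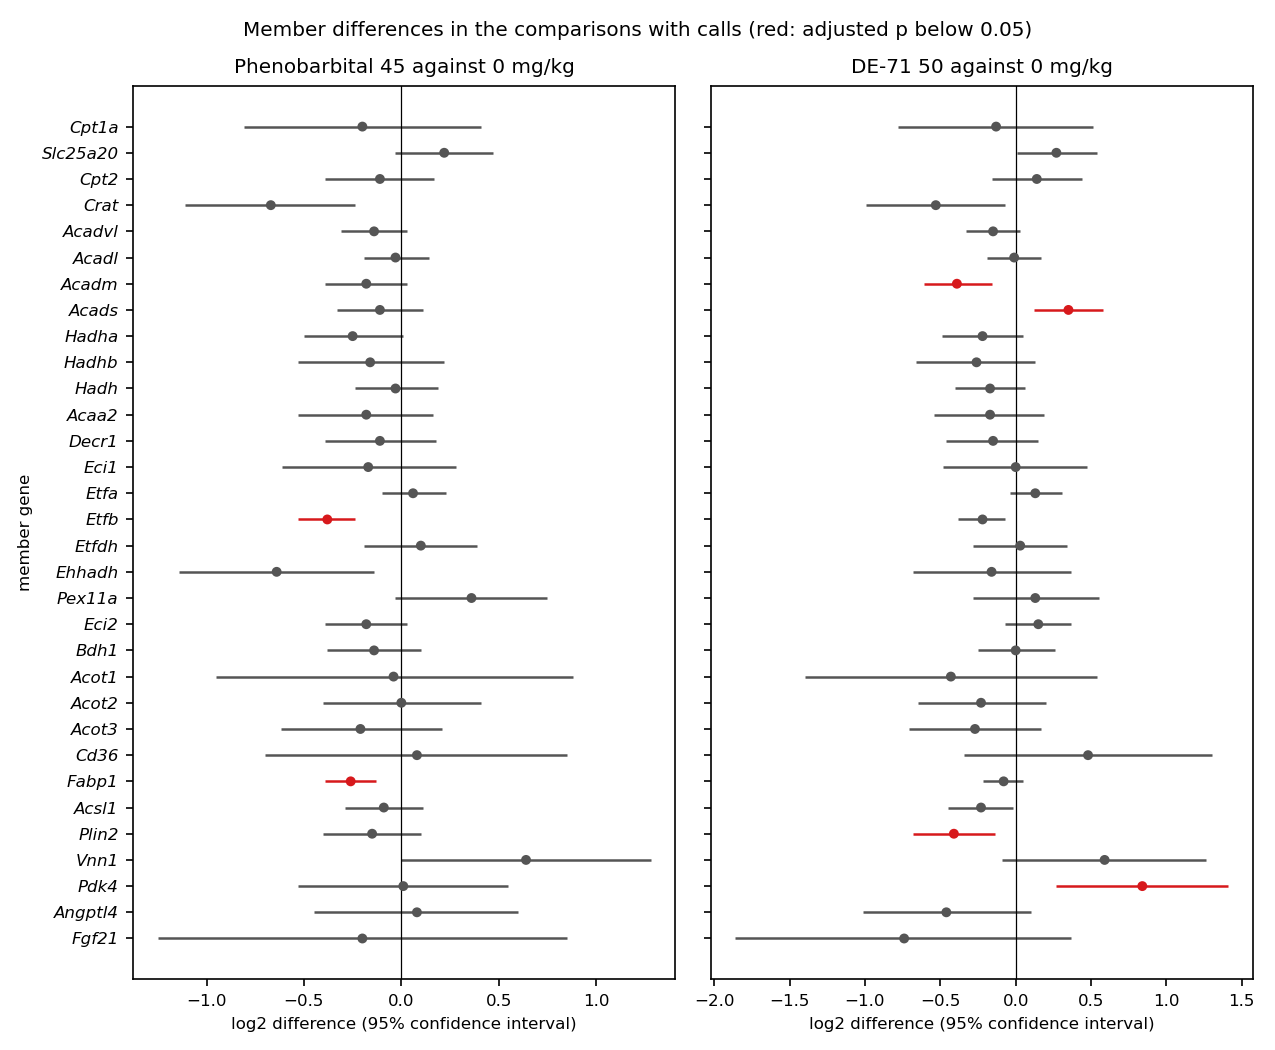
Log2 difference (points) with its 95% confidence interval (lines) for each of the 32 genes at phenobarbital 45 mg/kg (left) and DE-71 50 mg/kg (right), with called genes in red. At the left Etfb (-0.38) and Fabp1 (-0.26) have narrow intervals below 0; at the right Acadm (-0.39) and Plin2 (-0.41) lie below and Acads (0.35) and Pdk4 (0.84) above.

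BDE-47 is a single congener and DE-71 a mixture of congeners, and the pair was compared at the 3 doses both were given. Of 32 members tested at each dose, 96 tests in all, limma called 0. Among all genes 0%, 0.0141% and 0.12% were called at 0.1, 15 and 50 mg/kg. At an unadjusted p under 0.05 the counts were 3, 1 and 2 members of 32, where 4.53%, 5.11% and 11.4% of all genes had such a p. The response of Acads at 50 mg/kg was higher with DE-71 than with BDE-47 by 0.44 (95% CI 0.12 to 0.77, adjusted p 0.29), and that of Acadm was lower by -0.37 (95% CI -0.69 to -0.05, adjusted p 0.37). For Etfb the responses differed by 0.03 (95% CI -0.19 to 0.25) and for Pdk4 by 0.52 (95% CI -0.29 to 1.33). Only 14, 14 and 11 members had an interval within a 1.5-fold difference, so for most the data do not show that the agents act alike.

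A step from one dose to a higher one also gave 0 called members by limma. The share of all genes called was 0.682% for phenobarbital 45 against 5 mg/kg, 0.0211% for PCB126 250 against 50, 0% for BDE-47 50 against 15 mg/kg and 0.197% for DE-71 50 against 15 mg/kg. At an unadjusted p under 0.05 there were 6, 3, 1 and 6 members of 32 in that order, against 7.34%, 5.8%, 3% and 13.7% of all genes. Acadm had the smallest p, at -0.46 between the DE-71 doses (95% CI -0.69 to -0.22, adjusted p 0.093). It was called in that step when the near-identical arrays were left out, together with Plin2 and Acsl1. Etfb differed by -0.15 between the phenobarbital doses (adjusted p 0.64).

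The receptor itself was not called. Ppara differed by -0.1 to 0.4 over the 11 comparisons, the highest with DE-71 at 50 mg/kg (0.4, SE 0.15, limma adjusted p 0.085). Among its 15 measured partners and coregulators, itself included, Creb3l3, a hepatocyte factor that works with PPAR-alpha in fasting, fell with phenobarbital at 5 mg/kg (-0.75, adjusted p 0.037). Med1, a Mediator subunit that binds nuclear receptors, fell with DE-71 at 50 mg/kg (-0.38, adjusted p 0.027). Med1 was not called without replicate 2, and without the near-identical arrays 3 of the 15 fell (Ppargc1a, Ncoa1 and Med1). The share of all genes called without those arrays is not given. In the reported fit 0.106% of all genes were called with phenobarbital at 5 mg/kg and 10.2% with DE-71 at 50 mg/kg. Without replicate 2 the latter calls went from 1448 to 388 genes.

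Further mitochondrial oxidation genes, 19 outside the list, showed a few larger changes. With DE-71 at 50 mg/kg 2 rose and 1 fell, where 10.2% of all genes were called. Acad9, an acyl-CoA dehydrogenase that also assembles respiratory complex I, rose by 0.99 (limma adjusted p 0.00063). Its other rises came with phenobarbital at 45 mg/kg (0.89, adjusted p 0.0023) and BDE-47 at 50 mg/kg (0.68, adjusted p 0.042). Acsm3, a medium-chain acyl-CoA synthetase, fell with DE-71 at 50 mg/kg (-1.24, adjusted p 0.00019), at 15 mg/kg (-0.89, adjusted p 0.037) and with phenobarbital at 45 mg/kg (-1.02, adjusted p 0.0025). Hsd17b10, a mitochondrial hydroxyacyl-CoA dehydrogenase, fell with phenobarbital at 45 mg/kg (-0.38, adjusted p 0.04), and Acad8, which acts in valine breakdown, rose with DE-71 at 50 mg/kg (0.37, adjusted p 0.03). Without replicate 2 of that group Acad9 (0.79) and Acsm3 (-1.29) were called and Acad8 was not, and without the near-identical arrays Acad9 was not called with BDE-47 (0.63, adjusted p 0.091).

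Of 35 measured genes of the peroxisome outside the list, 5 rose and 1 fell with BDE-47 at 50 mg/kg. In that comparison 4.03% of all genes were called. Pecr, a peroxisomal enoyl-CoA reductase, rose by 0.51 (limma adjusted p 0.00021), Pex13, part of the import pore, by 0.38 (adjusted p 0.017), and Hsd17b4, the second bifunctional enzyme, by 0.31 (adjusted p 0.026). Phyh, the first enzyme of phytanic acid breakdown, fell by 0.3 (adjusted p 0.043). Without the near-identical arrays only Pecr and Phyh of these 6 were called. Rises of Pecr were also called with phenobarbital at 45 mg/kg (0.36, adjusted p 0.013), BDE-47 at 15 mg/kg (0.38, adjusted p 0.032) and DE-71 at 50 mg/kg (0.41, adjusted p 0.0029). The call of Pecr at BDE-47 15 mg/kg was lost without the near-identical arrays (0.33, adjusted p 0.18). With DE-71 at 50 mg/kg 2 rose and 1 fell, against 10.2% of all genes called. The fall was that of Hacl1, a peroxisomal lyase (-0.81, adjusted p 0.016), which was not called without replicate 2. Without the near-identical arrays 3 rose and 3 fell there, in a fit whose share of all genes called is not given.

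A list of further lipid handling genes reported as PPAR-alpha targets held larger changes. Other receptors also regulate genes of this kind, and which receptor acted here was not tested. Of 37 names, 36 matched a probe set, and 2 of them (Cyp4a10 and Cyp4a14) matched, as synonyms, genes already on the list (Cyp4a1 and Cyp4a3), which left 34 genes. With BDE-47 at 50 mg/kg 5 rose and 0 fell, where 4.03% of all genes were called. Cidea, a lipid droplet protein, rose by 1.95 (limma adjusted p 1.5e-05), Lpl, lipoprotein lipase, by 1.96 (adjusted p 2.6e-05), Me1, malic enzyme, by 1.86 (adjusted p 0.0013), and Aqp3, a glycerol channel, by 1.05 (adjusted p 0.014). With phenobarbital at 45 mg/kg 5 rose, led by Cidea (2.11, adjusted p 7.9e-07) and Cyp4a8, a fatty acid omega-hydroxylase (2.54, adjusted p 2.8e-05), and Aqp9 fell (-0.37, adjusted p 0.021). The share of all genes called there was 2.7%.

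In the same list, DE-71 gave 4 rises and 0 falls at 15 mg/kg and 3 rises and 3 falls at 50 mg/kg. Without the near-identical arrays the latter were 5 rises and 6 falls, and without replicate 2 they were 2 and 2. Of all genes 1.24% and 10.2% were called at these doses in the reported fit. The share without the near-identical arrays is not given. Without replicate 2 the calls over all genes at 50 mg/kg went from 1448 to 388. At 50 mg/kg Me1 rose by 1.94 (limma adjusted p 0.00046) and Cyp4a8 by 1.79 (adjusted p 0.0047). Slc27a5, a bile acid and fatty acid ligase, fell (-0.71, adjusted p 3.9e-06), as did Acsl5, an acyl-CoA synthetase (-0.84, adjusted p 5.1e-06). These 4 were also called without replicate 2. At 15 mg/kg Cyp4a8 rose by 1.92 (adjusted p 0.01) and was the only 1 of the 4 called without the near-identical arrays. Cyp4a1 (-0.38 to 0.06) and Cyp4a3 (-0.21 to 0.25), omega-hydroxylases that fibrates induce in rat liver, were not called with any agent. Over the 34 genes the median difference at DE-71 50 mg/kg was -0.07, with 14 above 0 and 20 below. It was 0.01 without replicate 2 and -0.11 without the near-identical arrays.

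Of 5 measured genes of ketone body handling outside the list, 1 rose and 1 fell with DE-71 at 50 mg/kg and 0 were called in the other 10 comparisons. At DE-71 50 mg/kg 10.2% of all genes were called. Bdh2, a cytosolic hydroxybutyrate dehydrogenase, rose by 1.21 (limma adjusted p 9.4e-05), and by 1.04 without replicate 2 (adjusted p 0.0042). Slc16a1, a transporter of lactate and ketone bodies, fell (-0.73, adjusted p 0.0033), and was not called without replicate 2 (-0.48, adjusted p 0.13). Acat1, the mitochondrial acetoacetyl-CoA thiolase, read -0.41 (adjusted p 0.05) and just missed the threshold. It fell when the near-identical arrays were left out.

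Genes that follow feeding and the clock were set beside these results, since fatty acid oxidation genes vary with both. Of 11 fasting and gluconeogenesis genes, Gadd45b, a stress and growth arrest gene, rose with phenobarbital at 45 mg/kg (1.84), BDE-47 at 50 mg/kg (1.27) and DE-71 at 15 and 50 mg/kg (1.64 and 1.8). The shares of all genes called in these comparisons were 2.7%, 4.03%, 1.24% and 10.2% in that order. Pc, pyruvate carboxylase, fell with phenobarbital at 45 mg/kg (-0.57) and BDE-47 at 50 mg/kg (-0.46), and Fbp1, of gluconeogenesis, with DE-71 at 50 mg/kg (-0.44), each called by limma. At DE-71 50 mg/kg the list had a median of -0.44, with 8 of 11 genes below 0. BDE-47 also had 8 of 11 below 0, at 50 mg/kg (median -0.39) and at 15 mg/kg (-0.21). With DE-71 at 15 mg/kg 6 of 11 were below 0 (-0.04). Without the near-identical arrays the BDE-47 50 mg/kg median was -0.44. At DE-71 50 mg/kg the median was -0.33 without replicate 2 and -0.53 without the near-identical arrays. In that last fit 5 of the 11 fell (Pck1, Fbp1, Pc, Ppargc1a and Irs2), but its share of all genes called is not given. Of 15 clock genes, Dbp rose (0.9) and Cry1 (-0.72) and Hlf (-0.47) fell with DE-71 at 50 mg/kg, and none of the 3 was called without replicate 2. The part of feeding state or time of day in the members' values was not tested. Among cell type markers, 4 of 6 Kupffer cell and macrophage genes (Cd68, Cd163, Clec4f and Csf1r) fell with BDE-47 at 50 mg/kg. Their list averaged 7.54 to 8.08 there against 8.14 to 8.78 in the controls, and its part in the BDE-47 values above was not tested. Hepatocyte markers averaged 13.16 to 13.25 in that group and 13.2 to 13.26 in its controls.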

How the data were processed

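The authors deposited log2 expression values per probe set, made with RMA (no version stated) per the submitters' processing notes. Of 31099 probe sets, 20826 carry 1 gene symbol in the array's annotation. A gene is represented by whichever of its single-gene probe sets was brightest on average across the arrays, with no filter on dim ones. Array medians lay between 4.816 and 5.036, and arrays have no counting depth, so their number limits the precision. Arrays were compared over the 300 most variable genes of mean log2 7 or more, a pair counting as nearly identical when the root mean square difference was below 0.3 (4 pairs at 0.105 to 0.202, the next at 0.531).

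One limma 3.58.1 fit (R 4.3.3) held the means of all 15 groups over 72 samples. P-values are two-sided, adjusted by Benjamini and Hochberg over 14217 genes per comparison, and the fit was checked on simulated data. Comparisons were each dose against its own control, higher against lower dose, and the DE-71 minus the BDE-47 response. Alternatives changed the arrays used, normalization, filter, probe sets, weights, prior and block. The counts of the further lists without DE-71 50 mg/kg replicate 2, or without the near-identical arrays, were chosen after seeing the data.

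The rule named every called member with its samples, the other members by range, up to 4 called genes per further list and comparison by p (2 where none was called) and Ppara; some items are not reported here. Other members and genes given with values were chosen after these were seen. The members and lists were chosen with earlier results of these data known. Sequences are RefSeq's, from GRCr8; the files name no genome build. Genes without a single-gene probe set, and promoters of Acaa2, Vnn1, Acadl and Decr1, were not used here.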

Additional observations from a re-analysis of the deposited data

Results flagged for a closer look

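Among the 6 called genes, 90 groups of samples were searched for a sample far from its group, which chance alone gives in about 1 in 20 groups, and 5 were found. Etfb read 12.26 in phenobarbital control replicate 3, against 12.1 to 12.14 in the other 4 controls. In PCB126 50 replicate 5 it read 12.24, against 11.66 to 11.8. Fabp1 read 13.4 in phenobarbital 45 mg/kg replicate 5, against 13.63 to 13.71, and 13.79 in PCB126 250 replicate 5, against 13.62 to 13.66. Pdk4 read 8.95 in phenobarbital 45 mg/kg replicate 1, against 9.3 to 9.33. The gap to the nearest sample, as a share of the group's range, was 0.75, 0.76, 0.74, 0.76 and 0.92 in that order. Without control replicate 3 the fall of Etfb at 45 mg/kg was -0.36 (limma adjusted p 0.0036). Without treated replicate 5 that of Fabp1 was -0.21 (adjusted p 0.094) and no longer called.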

How the results depend on the processing

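No result reversed. Over the alternatives, 880 values of single members kept their side of the threshold, 17 passed it where the reported fit did not, and 21 lost it. The fall of Etfb with phenobarbital at 45 mg/kg was called in every alternative run. The members called there went from 2 to 1 with arrays centred. With BDE-47 at 15 mg/kg they went from 0 to 1 in the fit of only the groups compared. With BDE-47 at 50 mg/kg they went from 0 to 2 with all 74 arrays as separate samples, to 1 without the near-identical arrays, with quantile normalization again, with genes of mean log2 6 or more, with the mean of probe sets and with a trend and robust prior (Etfb each time), and to 3 in the fit of only the groups compared and with array weights. With DE-71 at 15 mg/kg they went from 0 to 1 with 74 arrays. With DE-71 at 50 mg/kg they went from 4 to 0 in the fit of only the groups compared and with array weights, and to 2 with arrays centred or the mean of probe sets. Between doses they went from 0 to 3 for phenobarbital with array weights, and for DE-71 from 0 to 1 with 74 arrays and 3 without the near-identical arrays. Nothing in the labels pairs samples by replicate number, and in no comparison did every same-numbered pair correlate above 0.1 (range -0.27 to 0.39). PCB126 came closest, with 3 of 5 pairs above 0.1 at 50 and 4 of 5 at 250, and with 3 samples in each correlating best with their own number. With the replicate number as a block, 2 members (Acadm and Etfb) were called with DE-71 at 50 mg/kg in place of 4. Among all genes, counts with array weights were 59 (phenobarbital 5 mg/kg, reported 15), 836 (45 mg/kg, 384), 4 (PCB126 50, 1), 191 (BDE-47 15 mg/kg, 117), 971 (50 mg/kg, 573) and 489 (DE-71 50 mg/kg, 1448). With 74 arrays they were 339 and 991 for BDE-47 and 307 for DE-71 at 15 mg/kg (reported 177). The fit of only the groups compared gave 62 and 118 for DE-71 at 15 and 50 mg/kg. Without the near-identical arrays BDE-47 at 15 mg/kg gave 61. For PCB126 at 50 the count was 0 without those arrays, with only the groups compared, with the trend and robust prior and with the replicate block, and 3 with quantile normalization or centring. Leaving out 1 sample at a time gave 5 to 24 and 233 to 356 genes for phenobarbital, 0 to 1 and 4 to 8 for PCB126 50 and 250, 44 to 116 and 359 to 615 for BDE-47 at 15 and 50 mg/kg, and 0 to 1, 101 to 191 and 388 to 1963 for DE-71 in order of dose. Members then ranged from 1 to 2 (phenobarbital 45 mg/kg), 0 to 2 (BDE-47 50 mg/kg), 1 to 5 (DE-71 50 mg/kg) and 0 to 3 (DE-71 50 against 15 mg/kg). The cause of these shifts was not tested. Groups of 4 or 5 samples limit what can be called.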
